A study of Homo sapiens with 12 samples.

Results

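The genes described here are long intergenic noncoding RNA genes that carry a systematic LINC symbol, chosen as every row of the deposited count table whose symbol is LINC followed by digits and nothing else. There were 55 such genes among 16271 in the table, and 46 of them passed the filter on low counts that left 14676 genes to test. Their RNA was measured in HaCaT, a line of human skin keratinocytes that became immortal spontaneously in culture, as total RNA from 4 groups of 3 libraries. The groups were VDR KO cells treated with 1,25(OH)2D3 for 8 h, untreated VDR KO cells, wild type cells treated for 8 h and untreated wild type cells. All groups were grown in the same medium with fetal bovine serum. How VDR was disrupted, how many clones were used, the dose and the vehicle were not stated. The labels call the replicates cultures in 6-well plates, so p-values measure the spread between wells. Serum can itself carry vitamin D metabolites, and its content was not measured here.

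A LINC symbol is a holding name for a transcribed gene between protein-coding genes with no known protein product, and it is replaced once a function or position-based name is agreed. Such RNAs are usually made at lower levels than messenger RNAs. The best studied of them act as scaffolds or decoys for proteins in the nucleus or cytoplasm, or are by-products of transcription at the promoters of neighbouring genes. VDR, the vitamin D receptor, is a nuclear receptor that binds 1,25(OH)2D3, pairs with RXR on DNA and changes the transcription of genes such as CYP24A1, which encodes the enzyme that breaks the hormone down. LINC00657, now named NORAD, is an abundant cytoplasmic RNA, named for its activation by DNA damage and known for its part in keeping the genome stable.

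The symbol did not settle what kind of gene each row was. Of the 55 genes, 52 were placed on GRCh38 by GENCODE v29, where 36 had the type lincRNA, 5 were processed transcripts, 4 were protein coding, 3 were antisense RNAs, 2 were transcribed pseudogenes, 1 was transcribed from a bidirectional promoter and 1 overlapped a coding gene on its own strand. The protein-coding ones were LINC00116, now MTLN (a small mitochondrial membrane protein), LINC00493, now SMIM26 (another small mitochondrial protein), LINC00085, now SPACA6 (a sperm membrane protein of fertilization), and LINC00094, now BRD3OS. In all, 19 had a different symbol in the current name table, among them LINC00152 (CYTOR), LINC00704 (MANCR), LINC00669 (MIR924HG, the host gene of miR-924), LINC00338 (SNHG20) and LINC00263 (OLMALINC). LINC00869 is now called LINC00623, while the row deposited as LINC00623 is another gene ID, and both are named here as deposited. Gene spans ran from 1.09 to 593 kb with a median of 14.3 kb. The strand used in counting was not stated, and 16 genes overlapped another counted gene, 13 of them within exons. The counts of LINC00338, LINC00539 and LINC00526 equalled those of SCARNA16, MIPEPP3 and an overlapping clone-named gene in every library, so each of these 3 cannot be told apart from its partner.

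Total counts per library were 11.83 to 12.77 M (M, 1e+06) in treated VDR KO libraries, 12.61 to 15.99 M in untreated VDR KO libraries, 13.13 to 13.89 M in treated wild type libraries and 11.49 to 12.21 M in untreated wild type libraries. Transcript levels of VDR averaged 82.8 ± 3.02 CPM in treated VDR KO cells, 77.6 ± 4.07 CPM in untreated VDR KO cells, 71.0 ± 3.62 CPM in treated wild type cells and 103 ± 3.81 CPM in untreated wild type cells (SD, n = 3 each), so the VDR transcript was still counted in the knockout libraries. CPM are counts per 1e+06 counts of the library, scaled by TMM, edgeR's correction for library composition. CYP24A1 stood at 12.2 ± 0.232 CPM in treated and 16.9 ± 4.83 CPM in untreated VDR KO cells, against 1676 ± 61.1 CPM in treated and 48.0 ± 2.88 CPM in untreated wild type cells. All 11 keratinocyte markers examined were in the table, and their summed level was 1684 to 1881 CPM in treated and 1981 to 2167 CPM in untreated VDR KO libraries, against 4251 to 4381 CPM in treated and 4324 to 5185 CPM in untreated wild type libraries. Of the markers of other cell types, 1 of 5 for melanocytes, 3 of 6 for fibroblasts, 1 of 3 for endothelial cells and 1 of 5 for leukocytes were in the table, and no library exceeded 20.6 CPM summed over any of these lists. In bulk RNA, fewer cells of a type and less RNA per cell cannot be told apart.

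Sequences are shown for some of the genes behind the hormone results, and LINC00842 is not among them. NORAD is a single-exon gene of 5339 bases at chr20:36045622-36050960 on the minus strand, 40544 bases from the nearest counted coding gene start, that of EPB41L1.

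The promoter windows of 4 genes called with hormone in wild type cells, and of LINC00526, which shares promoter sequence with LINC00667, are given next, each 300 bases long as RefSeq places the gene start on GRCh38.p14, read 5′ to 3′ on the gene's own strand. They lie at chr20:36050911-36051210 (minus strand, LINC00657), chr6:71420696-71420995 (minus strand, LINC00472), chr18:5237850-5238149 (plus strand, LINC00667), chr18:5237980-5238279 (minus strand, LINC00526) and chr10:4678021-4678320 (minus strand, LINC00704). Capitals mark the CCAAT box, the motif of NF-Y, and the nuclear receptor hexamer AGGTCA with its variants, which are AGTTCA as well as GGGTCA and also GGTTCA, each on either strand.
LINC00657 (NORAD) promoter: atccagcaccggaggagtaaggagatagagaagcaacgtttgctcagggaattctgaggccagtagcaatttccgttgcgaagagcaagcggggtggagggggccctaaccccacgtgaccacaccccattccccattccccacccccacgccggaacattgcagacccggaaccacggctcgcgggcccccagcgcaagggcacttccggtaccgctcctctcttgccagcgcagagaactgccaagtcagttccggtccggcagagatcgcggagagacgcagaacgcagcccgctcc
LINC00472 promoter: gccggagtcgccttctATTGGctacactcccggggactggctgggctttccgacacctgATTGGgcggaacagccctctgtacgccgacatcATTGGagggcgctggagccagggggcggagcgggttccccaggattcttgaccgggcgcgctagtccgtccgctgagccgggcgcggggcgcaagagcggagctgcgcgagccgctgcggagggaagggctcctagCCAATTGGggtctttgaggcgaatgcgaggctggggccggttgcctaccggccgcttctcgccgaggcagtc
LINC00667 promoter: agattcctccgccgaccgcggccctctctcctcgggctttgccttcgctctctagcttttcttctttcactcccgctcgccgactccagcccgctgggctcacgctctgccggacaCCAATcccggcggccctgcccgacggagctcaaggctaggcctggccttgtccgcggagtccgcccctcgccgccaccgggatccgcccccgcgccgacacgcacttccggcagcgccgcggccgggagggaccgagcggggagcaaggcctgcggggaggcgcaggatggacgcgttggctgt
LINC00526 promoter: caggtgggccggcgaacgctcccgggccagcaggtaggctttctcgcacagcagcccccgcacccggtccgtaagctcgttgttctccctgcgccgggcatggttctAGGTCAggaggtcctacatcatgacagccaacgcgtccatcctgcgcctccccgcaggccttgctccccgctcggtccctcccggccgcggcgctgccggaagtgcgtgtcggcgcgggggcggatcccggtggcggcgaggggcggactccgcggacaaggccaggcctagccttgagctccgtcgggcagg
LINC00704 (MANCR) promoter: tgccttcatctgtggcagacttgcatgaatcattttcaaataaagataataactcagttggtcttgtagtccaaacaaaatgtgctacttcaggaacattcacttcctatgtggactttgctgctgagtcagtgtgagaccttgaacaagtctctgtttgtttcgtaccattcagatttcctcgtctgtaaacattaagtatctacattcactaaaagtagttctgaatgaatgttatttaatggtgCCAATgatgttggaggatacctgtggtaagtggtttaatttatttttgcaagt

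The LINC00657 window held no capitals, those of LINC00667 and LINC00704 a CCAAT box each, and that of LINC00526 an AGGTCA hexamer. The windows of LINC00667 and LINC00526 run in opposite directions from a shared stretch and have 170 of 300 bases in common, at chr18:5237980-5238149. LINC00472 held several CCAAT boxes, of which a forward and a reverse copy overlap as CCAATTGG. RefSeq gave at least 1 window for 43 of the 55 genes. Some of these genes had 2 windows, and a gene was counted if either held the motif. The shares of all given beside them are per single window, so the 2 are not like for like. A receptor hexamer was found in 18 of the 43, against 38.6% of all 35116 windows in the table, the CCAAT box in 22 of the 43 (34.6% of all), the GC box GGGCGG in 24 of the 43 (45.0% of all) and TATAAA in 1 of the 43 (11.5% of all). The DR3 element, in which VDR and RXR bind 2 hexamers, was in no window of the 43 genes and in 0.074% of all windows. A match in these letters is a description of the window and no binding site, and VDR can act from sites far outside it.

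These RNAs differed widely in level, and a few carried most of the counts. The 4 with the most counts, LINC00511, LINC00657, LINC00472 and LINC00842, held 48.8% of all counts of the 55 genes, and the first 10 held 74.7%. Averaged over the 12 libraries, LINC00511 stood at 257 CPM, LINC00472 at 156 CPM, LINC00657 at 152 CPM, LINC00842 at 113 CPM and LINC00630 at 100 CPM. These means pool groups that differ, since NORAD averaged 188 CPM in treated and 218 CPM in untreated VDR KO cells, against 123 CPM in treated and 80.5 CPM in untreated wild type cells. Per kilobase of exon the order changed, because LINC00511 has 27605 exonic bases over all its transcripts and LINC00674 has 734. On that scale LINC00674, a transcribed pseudogene, came first with 47.6 CPM per kb, followed by LINC00472 with 45.4, LINC00657 with 28.6, LINC00493 (SMIM26) with 27.8, LINC00630 with 24.6 and LINC00669 with 17.6 CPM per kb. The median of the 52 genes with annotated exons was 2.67 CPM per kb, and the lowest was 0.047 CPM per kb.

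**Figure D1:**
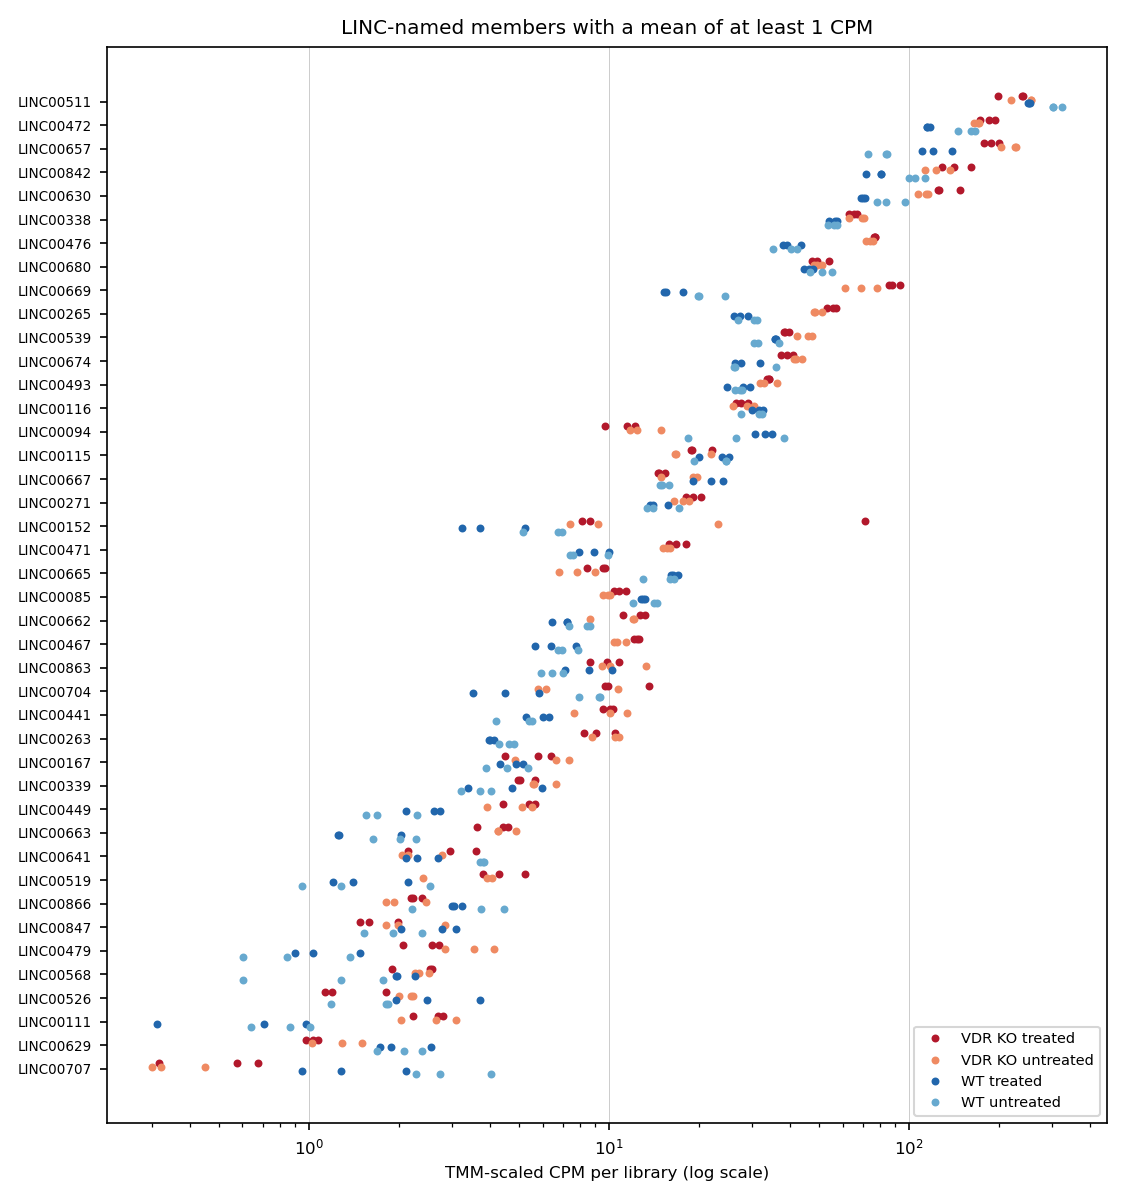
TMM-scaled CPM of each library on a log axis, for members with a mean of at least 1 CPM, ordered by mean level, with 1 point for each library and colours for the 4 groups. LINC00511, LINC00472 and LINC00657 lie at the top, and LINC00152 has 1 treated VDR KO library at 71.4 CPM, far to the right of its other libraries.

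The 55 genes together made up a larger part of the RNA in VDR KO cells. Their summed level was 1594 ± 90.9 CPM in treated and 1549 ± 63.6 CPM in untreated VDR KO cells, against 1156 ± 17.4 CPM in treated and 1258 ± 34.1 CPM in untreated wild type cells (SD, n = 3 each). Their share of all counts was 0.156 to 0.174% in the 6 VDR KO libraries and 0.110 to 0.127% in the 6 wild type libraries, with no overlap. The summed keratinocyte markers given above moved the opposite way with genotype, and their part in this was not tested. A few abundant RNAs weigh heavily in the sum of the 55, and not all of them were higher. In untreated cells NORAD averaged 218 CPM in VDR KO and 80.5 CPM in wild type cells. LINC00511 averaged 243 CPM in VDR KO and 308 CPM in wild type cells.

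In wild type cells, 8 h of hormone raised 2 of the 46 tested RNAs and lowered 9 (edgeR quasi-likelihood test with Benjamini-Hochberg adjustment, adjusted p below 0.05). Across all tested genes, 11.5% were called higher and 13.0% lower, and the median log2 fold change was 0.01 for these RNAs and 0.00 for all genes. Without treated wild type replicate 1 the number lowered was 5, and without treated wild type replicate 3 it was 3. The 2 that rose were NORAD and LINC00667. Those that fell included the abundant LINC00472, LINC00842, LINC00511 and LINC00630. The changes were small, and LINC00707 alone reached 2-fold, at 2.09-fold lower.

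NORAD had 120, 110 and 139 CPM in treated wild type libraries, against 84.0, 84.4 and 73.0 CPM in untreated ones. Every treated library was above every untreated one. The log2 fold change was 0.61 ± 0.09 (SE, n = 3 each; adjusted p = 0.000241). LINC00667, which overlaps LINC00526 on the other strand, had 21.9, 19.1 and 24.0 CPM in treated and 15.8, 15.0 and 14.8 CPM in untreated wild type libraries. Here too the groups did not overlap, with a log2 fold change of 0.51 ± 0.12 (adjusted p = 0.00478). LINC00526 itself had 3.71, 1.95 and 2.48 CPM in treated and 1.81, 1.83 and 1.18 CPM in untreated wild type libraries. Its treated libraries were all above the untreated ones, but its log2 fold change of 0.75 ± 0.28 did not pass the test (adjusted p = 0.0573).

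LINC00472, an RNA reported at low levels in breast tumours, had 115, 117 and 115 CPM in treated wild type libraries, against 146, 161 and 166 CPM in untreated ones. The treated libraries lay close together and below all untreated ones (log2 fold change -0.45 ± 0.07, adjusted p = 0.000382). LINC00842 had 71.7, 80.5 and 80.3 CPM in treated and 105, 100 and 113 CPM in untreated wild type libraries, again without overlap (-0.46 ± 0.09, adjusted p = 0.00227). These 4 calls, NORAD, LINC00667, LINC00472 and LINC00842, held under every alternative that was run.

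The other 7 that fell with hormone were lost in at least 1 alternative. LINC00669 (MIR924HG) had 17.6, 15.5 and 15.2 CPM in treated and 19.9, 19.8 and 24.3 CPM in untreated wild type libraries (-0.41 ± 0.11, adjusted p = 0.013). LINC00704, the mitosis-associated RNA MANCR, had 4.49, 5.85 and 3.53 CPM in treated and 9.31, 9.23 and 7.94 CPM in untreated ones (-0.93 ± 0.24, adjusted p = 0.0133). Neither pair of groups overlapped, but without treated wild type replicate 3 the adjusted p was 0.0654 for LINC00669 and 0.069 for LINC00704. LINC00511, reported at raised levels in carcinomas, had 253, 249 and 250 CPM in treated and 301, 302 and 322 CPM in untreated wild type libraries (-0.30 ± 0.08, adjusted p = 0.0167). LINC00630 had 70.0, 71.0 and 68.9 CPM in treated and 83.6, 78.3 and 96.9 CPM in untreated ones (-0.30 ± 0.09, adjusted p = 0.0169). The treated values were again the lower ones throughout. The adjusted p of LINC00511 was 0.0518 without treated replicate 2 and 0.0619 without treated replicate 3, and that of LINC00630 was 0.055 without treated replicate 1 and 0.0711 without treated replicate 3.

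The last 3 of the 9 had few counts. LINC00707 had 0.946, 2.11 and 1.28 CPM in treated and 4.05, 2.74 and 2.28 CPM in untreated wild type libraries (-1.06 ± 0.31, adjusted p = 0.0186). LINC00641 had 2.29, 2.11 and 2.70 CPM in treated and 3.71, 3.84 and 3.80 CPM in untreated ones (-0.67 ± 0.21, adjusted p = 0.0307). For LINC00869 the values were 0.789, 0.468 and 0.751 CPM in treated and 1.47, 1.19 and 1.35 CPM in untreated ones (-0.99 ± 0.33, adjusted p = 0.0403). No treated library reached an untreated one in any of the 3. LINC00869 passed the filter on low counts only through the untreated wild type libraries, its highest group, so its call is no support. The call on LINC00707 ended without untreated replicate 1 (adjusted p = 0.102), treated replicate 1 (0.0904) or treated replicate 3 (0.0806). The call on LINC00641 ended in turn without each untreated replicate or without treated replicate 1 or 2, with adjusted p of 0.058 to 0.103, and that on LINC00869 without any of the 6 libraries, with 0.0526 to 0.142. The alternative test DESeq2 ended the calls on LINC00641 and LINC00869. Fitting the compared groups alone ended those on LINC00707, LINC00869 and LINC00630.

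**Figure D2:**
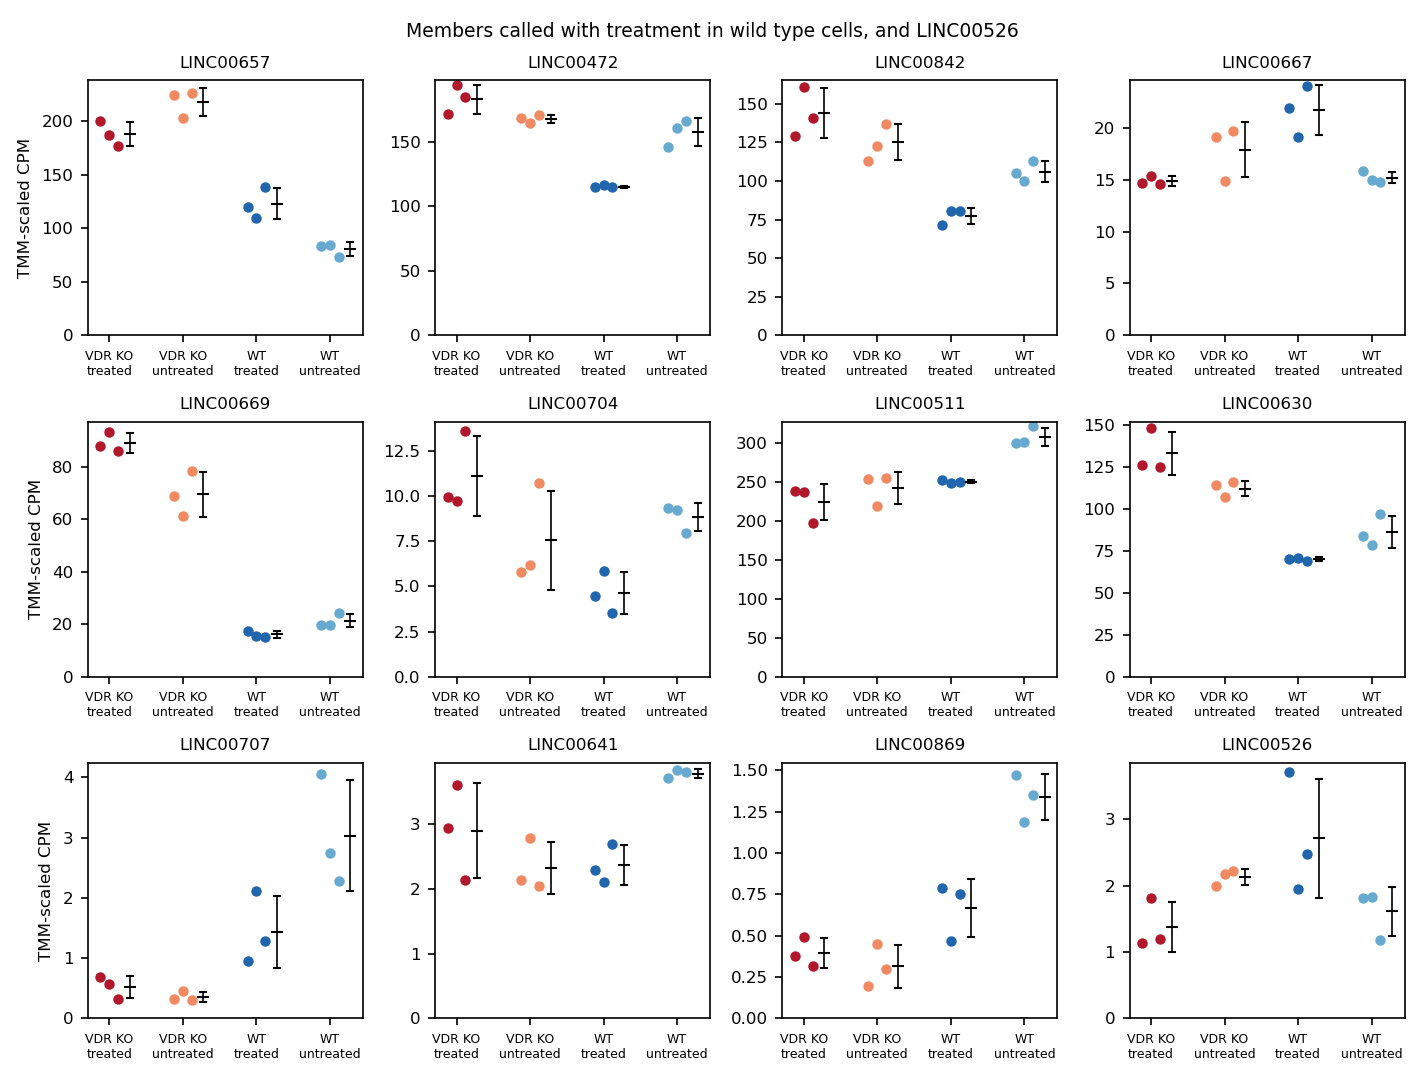
TMM-scaled CPM in each library of the 4 groups for the 11 members called with treatment in wild type cells and for LINC00526, each panel with its own axis from 0. Points are libraries, and bars are the mean and SD of 3. In wild type cells NORAD (LINC00657), LINC00667 and LINC00526 have all treated libraries above the untreated ones and the other 9 have them below.

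In VDR KO cells, 0 of the 46 were called with hormone in either direction by edgeR's quasi-likelihood test, beside 0.913% of all tested genes higher and 1.64% lower. At an unadjusted p below 0.05 there were 11, or 23.9%, beside 21.3% of all tested genes, and DESeq2 called 1, LINC00669, with a log2 fold change of 0.36 ± 0.11 (adjusted p = 0.0194). The median log2 fold change was 0.02 for these RNAs and 0.00 for all genes. NORAD had 200, 187 and 177 CPM in treated and 225, 203 and 227 CPM in untreated VDR KO libraries, a log2 fold change of -0.21 ± 0.09 (adjusted p = 0.174). Its treated libraries were thus the lower ones in VDR KO cells. LINC00472 had 172, 194 and 185 CPM in treated and 169, 165 and 171 CPM in untreated VDR KO libraries (0.13 ± 0.07, adjusted p = 0.311). LINC00669 had 87.7, 93.2 and 85.9 CPM in treated and 68.9, 61.0 and 78.3 CPM in untreated VDR KO libraries (0.36 ± 0.10, adjusted p = 0.0549). All 3 treated libraries of LINC00472 and of LINC00669 exceeded the untreated ones, without passing the test. When the 6 VDR KO libraries were fitted alone, LINC00669 (adjusted p = 0.00895) and LINC00630 (0.0392) were called higher and NORAD lower (0.0411). Without untreated VDR KO replicate 3, LINC00704 (0.89, adjusted p = 0.0454) and LINC00669 (0.45, adjusted p = 0.0478) were called higher.

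The difference between the hormone responses, that of VDR KO cells minus that of wild type cells, was tested directly as an interaction. It was called positive for 6 of the 46 and negative for 4, beside 13.8% and 12.5% of all tested genes. The response is a log2 fold change, so a negative difference means that the hormone raised the RNA less, or lowered it more, in VDR KO cells. Because the response in wild type cells enters the difference, the calls here and the treatment calls above share libraries.

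The 3 negative differences with the smallest adjusted p were in NORAD, LINC00667 and LINC00526. The NORAD response was -0.21 ± 0.09 in VDR KO cells and 0.61 ± 0.09 in wild type cells, a difference of -0.83 ± 0.13 (adjusted p = 0.000353). The LINC00667 response was -0.27 ± 0.12 in VDR KO cells and 0.51 ± 0.12 in wild type cells, a difference of -0.78 ± 0.17 (adjusted p = 0.00289). LINC00526, which shares promoter sequence with LINC00667, responded by -0.64 ± 0.28 in VDR KO cells and by 0.75 ± 0.28 in wild type cells. That difference was -1.39 ± 0.40 (adjusted p = 0.0165), and without treated wild type replicate 1 it was -1.10 with an adjusted p of 0.0531. LINC00539, whose counts equal those of the pseudogene MIPEPP3, was the fourth, at -0.34 ± 0.12 (adjusted p = 0.0433). This last call was not stable, since leaving out any library other than untreated wild type replicate 3 or untreated VDR KO replicate 2 gave an adjusted p between 0.0567 and 0.106. A block for replicate number ended it too, as did DESeq2.

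The 6 positive differences were in RNAs that fell with hormone in wild type cells. LINC00472 responded by 0.13 ± 0.07 in VDR KO cells and -0.45 ± 0.07 in wild type cells, a difference of 0.58 ± 0.10 (adjusted p = 0.000743). LINC00669 responded by 0.36 ± 0.10 in VDR KO cells and -0.41 ± 0.11 in wild type cells, a difference of 0.77 ± 0.15 (adjusted p = 0.00143). LINC00842 differed by 0.66 ± 0.13 (adjusted p = 0.00162) and LINC00630 by 0.55 ± 0.12 (adjusted p = 0.00344). MANCR (LINC00704) responded by 0.55 ± 0.22 in VDR KO cells and -0.93 ± 0.24 in wild type cells, and its difference of 1.48 ± 0.33 (adjusted p = 0.0053) was the widest of the 6. LINC00641 differed by 1.00 ± 0.30 (adjusted p = 0.0227). Its call ended without treated wild type replicate 2 (adjusted p = 0.057), untreated VDR KO replicate 1 (0.0561) or 3 (0.052), or treated VDR KO replicate 2 (0.074). The calls on NORAD, LINC00667, LINC00472, LINC00669, LINC00842, LINC00630 and LINC00704 held under every alternative that was run.

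For LINC00707, LINC00869 and LINC00511, the other 3 RNAs lowered by hormone in wild type cells, the difference did not pass the test. It was 1.62 ± 0.60 (adjusted p = 0.0539) for LINC00707, 1.33 ± 0.58 (adjusted p = 0.101) for LINC00869 and 0.18 ± 0.12 (adjusted p = 0.271) for LINC00511. The LINC00511 response in VDR KO cells was -0.11 ± 0.08 (adjusted p = 0.454), against -0.30 ± 0.08 in wild type cells.

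**Figure D3:**
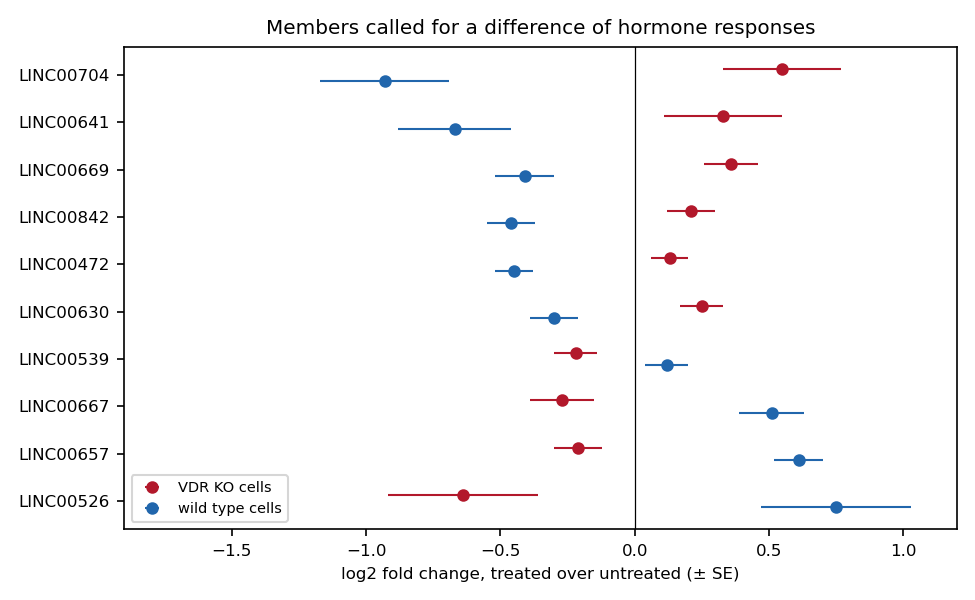
Log2 fold change of treated over untreated cells with its SE, in VDR KO cells (red) and wild type cells (blue), for the 10 members whose responses differed. For the 6 upper members the VDR KO value lies to the right of 0 and the wild type value to the left, and for the 4 lower members the sides are exchanged.

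Between genotypes, more of these RNAs were called higher than lower in VDR KO cells. The share called in either direction was near that of all tested genes. Without hormone, 11 of the 46 were not called, beside 4450 of all 14676 tested genes. Without hormone, 25 of the 46 were called higher in VDR KO cells and 10 lower, beside 35.5% and 34.2% of all tested genes. The median log2 fold change was 0.39, against 0.01 over all tested genes. The same direction was found in the 406 tested genes of lincRNA type without a LINC symbol, of which 57.6% were called higher and 15.0% lower with a median of 0.64. Among 11750 tested protein-coding genes, 33.7% were higher and 36.7% lower. Group means were above those of wild type cells for 37 of all 55 genes, the 9 untested ones with few counts included. The same count was not made over the whole table. The summed keratinocyte markers given above were lower in VDR KO libraries, and their part in these differences was not tested. Scaling by library size alone moved the median of all genes to 0.13 and that of these RNAs to 0.52, a shift of the same order in both.

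In untreated cells the smallest adjusted p values belonged to LINC00669 and NORAD. LINC00669 had 68.9, 61.0 and 78.3 CPM in VDR KO libraries, against 19.9, 19.8 and 24.3 CPM in wild type libraries. It was 3.25-fold higher (log2 fold change 1.70 ± 0.10, adjusted p = 5.07e-10). NORAD had 225, 203 and 227 CPM in VDR KO libraries, against 84.0, 84.4 and 73.0 CPM in wild type libraries, which was 2.71-fold higher (1.44 ± 0.09, adjusted p = 7.59e-10). In both, the VDR KO libraries lay far above all wild type ones. LINC00472 did not pass the test in untreated cells, at 169, 165 and 171 CPM in VDR KO and 146, 161 and 166 CPM in wild type libraries (0.09 ± 0.07, adjusted p = 0.256).

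Other RNAs that were higher in untreated VDR KO cells spanned a wide range of levels. LINC00476, which lies head to head with the DNA repair helicase gene ERCC6L2, had 71.7, 74.2 and 75.5 CPM in VDR KO and 40.4, 35.3 and 42.2 CPM in wild type libraries (0.91 ± 0.08, adjusted p = 2.91e-08). LINC00265 had 48.1, 51.4 and 48.5 CPM in VDR KO and 31.2, 26.9 and 30.5 CPM in wild type libraries (0.74 ± 0.08, adjusted p = 3.99e-07). OLMALINC (LINC00263), which lies next to the fatty acid desaturase gene SCD, had 10.8, 8.78 and 10.5 CPM in VDR KO and 4.83, 4.30 and 4.65 CPM in wild type libraries (1.13 ± 0.14, adjusted p = 1.71e-06). Each of the 3 was separated from wild type without overlap. Among low-count RNAs, LINC00857 had 34, 27 and 22 counts in VDR KO and 1, 1 and 3 counts in wild type libraries. Its fitted log2 fold change was 3.57 ± 0.44 (adjusted p = 1.88e-06) and became 4.23 without untreated wild type replicate 3, so its size is poorly fixed. LINC00479 (1.90 ± 0.28) and LINC00111 (1.62 ± 0.31), a pair on chromosome 21 whose nearest counted coding gene is RIPK4, a kinase of epidermal differentiation, were higher as well, as were LINC00449 (1.40 ± 0.21), LINC00663 (1.17 ± 0.21), LINC00519 (1.13 ± 0.32), LINC00568, now FALEC (0.95 ± 0.29), LINC00441 (0.95 ± 0.16) and LINC00471 (0.90 ± 0.13).

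The lower RNAs in untreated VDR KO cells were mostly of modest abundance. LINC00707 had 0.322, 0.450 and 0.300 CPM in VDR KO and 4.05, 2.74 and 2.28 CPM in wild type libraries, 8.38-fold lower (-3.07 ± 0.38, adjusted p = 1.74e-06). LINC00665, reported in several carcinomas, had 8.96, 6.83 and 7.81 CPM in VDR KO and 16.5, 16.0 and 13.0 CPM in wild type libraries (-0.94 ± 0.12, adjusted p = 3.93e-06). LINC00094 (BRD3OS) had 14.9, 12.4 and 11.7 CPM in VDR KO and 26.4, 38.2 and 18.3 CPM in wild type libraries (-1.08 ± 0.21, adjusted p = 0.000568). The groups did not overlap in these 3, although the wild type values of BRD3OS were spread widely. LINC00869 (-2.08 ± 0.37), LINC00866 (-0.75 ± 0.24), LINC00641 (-0.72 ± 0.21), LINC00629 (-0.69 ± 0.25), LINC00085 (-0.46 ± 0.11), LINC00511 (-0.34 ± 0.08) and LINC00115 (-0.31 ± 0.13) made up the rest. Of these, LINC00869 passed the filter on low counts only through the untreated wild type libraries, where it was highest, so its call is no support. Of the 35 calls, 29 held under every alternative. Those on LINC00115, LINC00167, LINC00629, LINC00662, LINC00842 and LINC00866 did not. Changes of method ended some of these calls, among them DESeq2 for LINC00167, LINC00629 and LINC00842. The call on LINC00115 ended with library size alone, either change of filter, the replicate block, limma or the compared groups fitted alone. Leaving out 1 library ended the call on LINC00115 for untreated wild type replicate 1 (adjusted p = 0.15) or 3 (0.103) and untreated VDR KO replicate 1 (0.176) or 2 (0.16), and on LINC00167 for untreated wild type replicate 2 (0.085) or 3 (0.147) and untreated VDR KO replicate 1 (0.111) or 2 (0.173). It ended the call on LINC00629 for untreated wild type replicate 1 (0.0537) or 2 (0.0967) and untreated VDR KO replicate 3 (0.0957), on LINC00662 for untreated VDR KO replicate 1 (0.0566) or 3 (0.062), and on LINC00866 for untreated wild type replicate 1 (0.0838). LINC00842, higher by 0.23 ± 0.09, lost its call without untreated wild type replicate 1 (0.0647) or 2 (0.111) or untreated VDR KO replicate 2 (0.0564) or 3 (0.164).

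**Figure D4:**
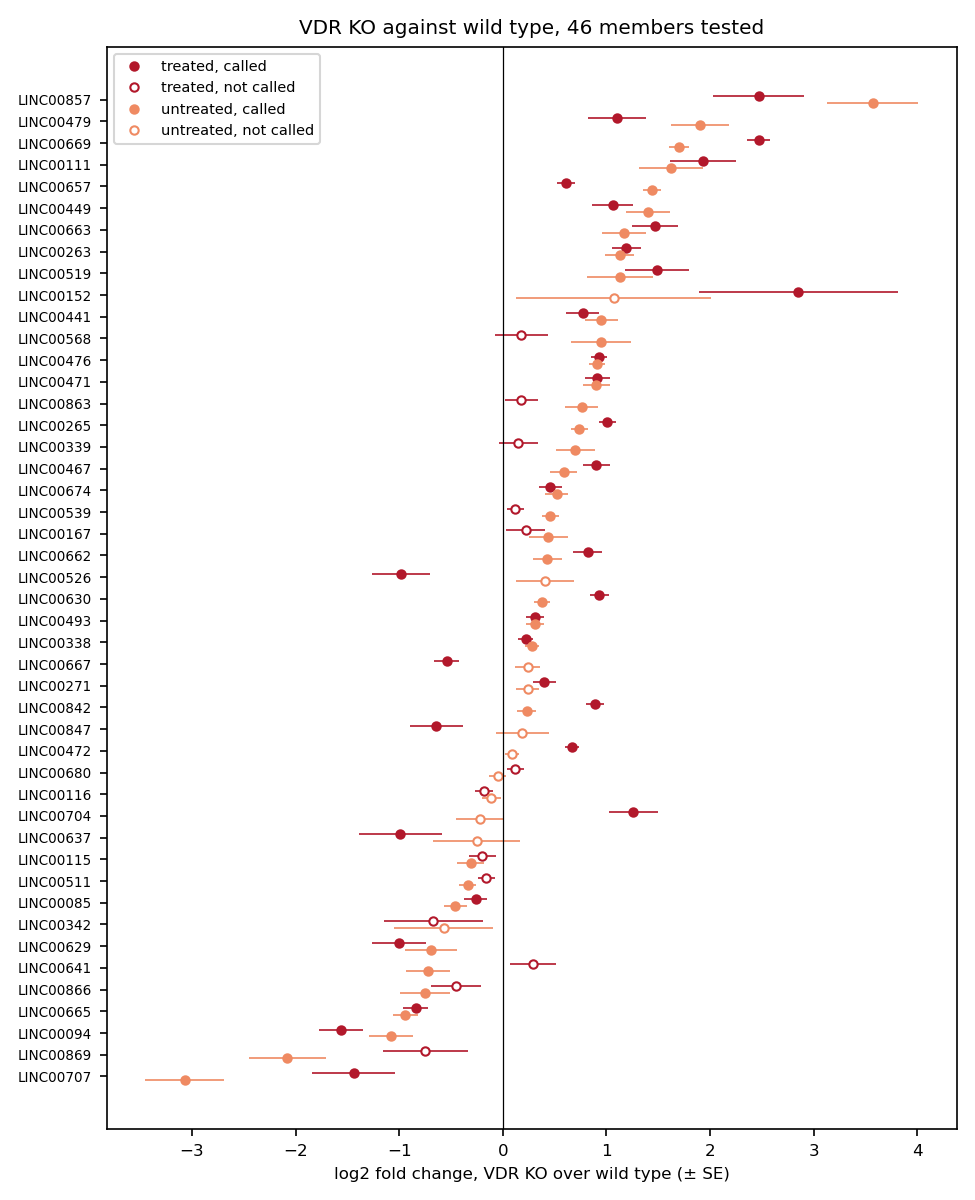
Log2 fold change of VDR KO over wild type cells with its SE for the 46 members tested, in treated cells (dark red) and untreated cells (orange), with filled points for members called at an adjusted p below 0.05, ordered by the untreated value. LINC00857 heads the plot at 3.57 untreated, LINC00707 ends it at -3.07 untreated, and more filled points lie to the right of 0 than to the left.

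With hormone in both genotypes, 24 of the 46 were higher in VDR KO cells and 9 were lower, beside 38.4% and 37.4% of all tested genes, with a median log2 fold change of 0.30 against 0.02 for all genes. Not called were 13 of the 46, beside 3543 of all 14676 tested genes. In lincRNA genes without a LINC symbol, 55.4% were higher and 19.2% lower. The treated and untreated genotype comparisons use separate libraries but share the same fit. The number of clones was not stated, so agreement between these comparisons is not a separate test of genotype. Of the 46, 20 were called higher in both (43.5%), 5 lower in both (10.9%) and none in opposite directions, beside 29.1%, 28.4% and 1.93% of all tested genes. A further 10 were called in untreated cells only and 8 in treated cells only, and the matching shares of all tested genes were not computed. The 5 lower in both were LINC00085, LINC00094, LINC00629, LINC00665 and LINC00707. LINC00116 (MTLN), LINC00342 and the pseudogene LINC00680 were called in no comparison. For LINC00680 the log2 fold change between genotypes was 0.12 ± 0.08 in treated and -0.05 ± 0.08 in untreated cells, and for MTLN it was -0.18 ± 0.09 in treated and -0.11 ± 0.09 in untreated cells.

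LINC00669 again had the smallest adjusted p, with 87.7, 93.2 and 85.9 CPM in treated VDR KO libraries and 17.6, 15.5 and 15.2 CPM in treated wild type libraries. This was 5.53-fold higher (2.47 ± 0.11, adjusted p = 7.63e-12). NORAD had 200, 187 and 177 CPM in treated VDR KO and 120, 110 and 139 CPM in treated wild type libraries, 1.53-fold higher (0.61 ± 0.09, adjusted p = 8.55e-06). LINC00472 had 172, 194 and 185 CPM in treated VDR KO and 115, 117 and 115 CPM in treated wild type libraries, 1.59-fold higher (0.67 ± 0.07, adjusted p = 1.97e-07). In all 3 the genotypes did not overlap, and the ratio between genotypes was smaller for NORAD and larger for LINC00472 in treated than in untreated cells, which is the same contrast as the difference of responses given above. Also higher were LINC00265 (1.01 ± 0.08), LINC00476 (0.93 ± 0.08), LINC00630 (0.93 ± 0.09), LINC00842 (0.89 ± 0.09), OLMALINC (1.19 ± 0.14), LINC00471 (0.91 ± 0.12), LINC00467 (0.90 ± 0.13), LINC00663 (1.47 ± 0.22), LINC00111 (1.93 ± 0.32), LINC00519 (1.49 ± 0.31), LINC00857 (2.47 ± 0.44) and MANCR (1.26 ± 0.24).

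Of those lower in treated VDR KO cells, BRD3OS (LINC00094) had 12.2, 9.69 and 11.5 CPM in VDR KO and 35.0, 30.7 and 33.0 CPM in wild type libraries (-1.56 ± 0.21, adjusted p = 2.46e-05). LINC00665 had 9.72, 9.52 and 8.47 CPM in VDR KO and 16.3, 17.0 and 16.1 CPM in wild type libraries (-0.84 ± 0.12, adjusted p = 9.84e-06). LINC00667 had 14.7, 15.4 and 14.6 CPM in VDR KO and 21.9, 19.1 and 24.0 CPM in wild type libraries (-0.54 ± 0.12, adjusted p = 0.000472). Every VDR KO library was below every wild type library for these 3. LINC00707 (-1.44 ± 0.40), LINC00629 (-1.0 ± 0.26), LINC00637 (-0.99 ± 0.40), LINC00526 (-0.98 ± 0.28), LINC00847 (-0.64 ± 0.26) and LINC00085 (-0.26 ± 0.11) were the other 6. Of the 33 calls, 28 held under every alternative, and those on LINC00085, LINC00152, LINC00338, LINC00637 and LINC00847 did not. Scaling by library size alone ended the calls on LINC00085, LINC00637 and LINC00847, and so did DESeq2. LINC00085 lost its call without treated wild type replicate 1 (adjusted p = 0.0806) or 2 (0.0531) or treated VDR KO replicate 1 (0.0758) or 3 (0.108), and LINC00338 without treated wild type replicate 1 (0.0512). LINC00637 lost it without treated wild type replicate 1 (0.0529) or 3 (0.0979) or treated VDR KO replicate 1 (0.0617) or 3 (0.137), and LINC00847 without treated wild type replicate 1 (0.12) or 3 (0.0747) or treated VDR KO replicate 1 (0.0813) or 2 (0.0937).

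CYTOR (LINC00152), an RNA raised in many carcinomas, stood apart in single libraries. It had 8.14, 71.4 and 8.63 CPM in treated and 23.0, 9.16 and 7.39 CPM in untreated VDR KO libraries, against 3.71, 5.23 and 3.23 CPM in treated and 6.98, 6.76 and 5.16 CPM in untreated wild type libraries. The high values were those of treated VDR KO replicate 2 and untreated VDR KO replicate 1. With all libraries it was higher in treated VDR KO cells by 2.85 ± 0.96 (adjusted p = 0.0246). That value was 1.05 with an adjusted p of 0.0835 without treated VDR KO replicate 2, and 1.05 ± 0.21 with an adjusted p of 0.000447 when both high libraries were left out. The call also ended without treated wild type replicate 1 (0.069), 2 (0.0536) or 3 (0.0752), and when the compared groups were fitted alone. In untreated cells the log2 fold change was 1.07 ± 0.94 (adjusted p = 0.338).

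LINC00623, which the filter set aside, had 2, 24 and 15 counts in treated and 1, 0 and 2 counts in untreated VDR KO libraries, with 4, 4 and 1 counts in treated and 1, 1 and 0 counts in untreated wild type libraries. Treated VDR KO replicate 1 thus resembled the untreated libraries and the other two did not. With no filter on low counts it was called higher with hormone in VDR KO cells (3.85 ± 0.88, adjusted p = 0.0351), a fitted value that depends on the prior count. Without treated VDR KO replicate 1 it passed the usual filter and was called (adjusted p = 0.00806). Leaving out that library let it pass the filter through the group where it was high, so the second call is no support. LINC00319, also set aside, had no counts in the 3 untreated wild type libraries. It had 9 counts in treated wild type libraries and 23 in untreated VDR KO libraries. Taking 3 counts over the untreated wild type group, as the limit that 0 counts allow, these were 2.66-fold and 6.30-fold higher. The 9 and 23 counts were taken as exact, so these ratios are not lower bounds, and they do not cover the spread between wells.

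**Figure D5:**
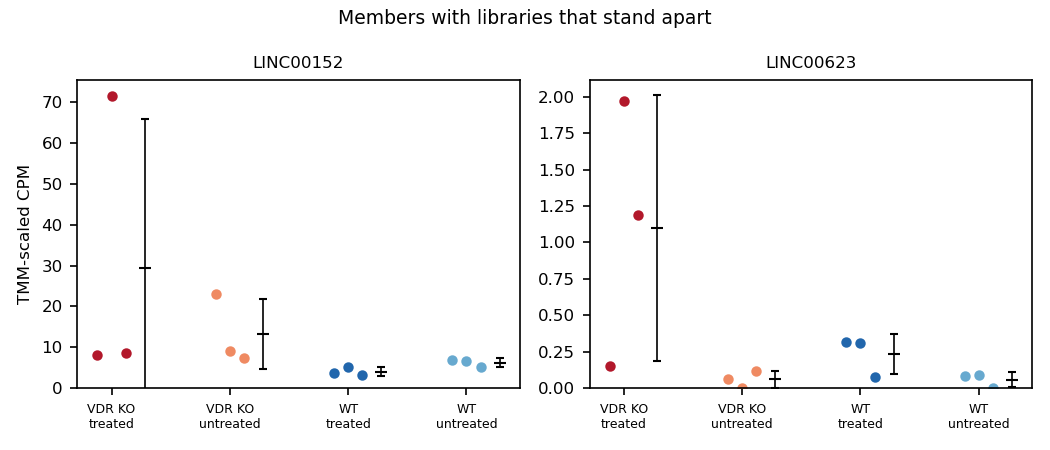
TMM-scaled CPM by library for LINC00152 (left) and LINC00623 (right) in the 4 groups, with the mean and SD of 3 libraries beside the points; the lower SD bar of LINC00152 in treated VDR KO cells is cut by the axis at 0. For LINC00152 the treated VDR KO group has 1 library at 71.4 CPM and the others at 8.14 and 8.63 CPM.

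Position relative to coding genes varied. The median distance to the nearest counted coding gene start was 34.5 kb, and 8 of the RNAs started within 1 kb of a coding gene that runs the opposite way, an arrangement in which a shared promoter can drive both. LINC00441, now RB1-DT, starts 65 bases from RB1, the retinoblastoma cell cycle brake. It was higher in VDR KO cells by 0.77 in treated and 0.95 in untreated cells, where RB1 had 0.79 ± 0.11 (adjusted p = 5.01e-06) in treated and 0.18 ± 0.11 (adjusted p = 0.146) in untreated cells. LINC00476 was higher by 0.93 in treated and 0.91 in untreated VDR KO cells, where ERCC6L2, 114 bases away, had 0.36 ± 0.08 (adjusted p = 0.000431) in treated and 0.08 ± 0.08 (adjusted p = 0.343) in untreated cells. LINC00449 was higher by 1.06 in treated and 1.40 in untreated cells, and its partner TM9SF2 had 0.08 ± 0.07 (adjusted p = 0.352) in treated and 0.19 ± 0.07 (adjusted p = 0.0276) in untreated cells. For these 3 pairs the RNA was called in both treatments and the coding gene in 1 of the 2. For LINC00167 the coding gene was called in both treatments and the RNA in untreated cells only. LINC00167 had 0.22 ± 0.19 (adjusted p = 0.3) in treated and 0.44 ± 0.19 (adjusted p = 0.0431) in untreated cells, while PRDM10 had 0.87 ± 0.10 (adjusted p = 3.24e-07) in treated and 0.75 ± 0.10 (adjusted p = 2.5e-06) in untreated cells. LINC00866 had -0.45 ± 0.24 (adjusted p = 0.0944) in treated and -0.75 ± 0.24 (adjusted p = 0.00942) in untreated cells, and GOLGA7B had -0.84 ± 0.14 (adjusted p = 3.39e-05) in treated and -0.53 ± 0.13 (adjusted p = 0.00181) in untreated cells. LINC00271 had 0.40 ± 0.11 (adjusted p = 0.00314) in treated and 0.24 ± 0.11 (adjusted p = 0.0593) in untreated cells, and AHI1, a gene of the primary cilium 25 bases away, had 0.35 ± 0.11 (adjusted p = 0.00984) in treated and -0.23 ± 0.11 (adjusted p = 0.071) in untreated cells. Exons of LINC00476 and LINC00449 overlap their partners, and how far reads were shared was not tested.

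Among LINC RNAs with published roles in epithelial or cancer cells, 10 of 25 listed were in the table and 9 were tested. With hormone in wild type cells 1 of these rose and 3 fell, beside 11.5% and 13.0% of all genes, and in VDR KO cells none was called. Between genotypes 7 were higher and 1 lower in treated VDR KO cells, and 4 were higher and 2 lower in untreated VDR KO cells, beside the shares of all genes given above (38.4% and 37.4% treated, 35.5% and 34.2% untreated). The untreated counts were near those shares. The 7 included CYTOR (LINC00152), whose call ended without treated VDR KO replicate 2 (adjusted p = 0.0835). The 9 had median log2 fold changes of 0.82 in treated and 0.43 in untreated cells, against 0.30 and 0.39 for all 46. The list was drawn up with earlier results of these data known. Of symbols later given to small-protein genes, 2 of 11 listed were in the table, and SMIM26 (LINC00493) was higher by 0.31 ± 0.09 in treated (adjusted p = 0.00379) and 0.31 ± 0.09 in untreated VDR KO cells (adjusted p = 0.00442), whereas MTLN was not called. Of 4 listed hosts of small or circular RNAs, LINC00338 (SNHG20) alone was in the table. It was higher in VDR KO cells by 0.22 ± 0.07 in treated (adjusted p = 0.0106) and 0.28 ± 0.07 in untreated cells (adjusted p = 0.00184), with counts equal to those of SCARNA16.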

How the data were processed

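Members and lists were chosen with earlier results of these data known. The authors deposited raw read counts per gene and CPM per gene, per the file headers. Reads were aligned with BWA 0.5.9 to mm9, per the submitters' processing notes. As the gene IDs are human, the true build, annotation, counter and strand remain details not given in the sources used here. Gene positions and types come from GENCODE v29 on GRCh38, names from the gene name table and promoters from RefSeq.

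The test ran in R 4.3.3 and edgeR 4.0.16: TMM scaling (factors 0.95 to 1.057), filterByExpr (14676 genes kept, 1595 set aside), a robust quasi-likelihood F test of all 12 libraries and Benjamini-Hochberg adjustment over all genes within a comparison. Genes with adjusted p below 0.05 were called. The SE is the log2 fold change over the square root of F. The procedure was tested on simulated data. Alternatives used DESeq2 1.42.0, limma 3.58.1 on log2 of the deposited CPM plus 1, other scalings, filters, thresholds and sample sets. The genes named are LINC00657, LINC00472, the called ones with the smallest adjusted p or largest fold, the most abundant and the listed ones. Others with few counts or unstable calls were added after their values were seen. Deposited enrichment tables were not used.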

Additional observations from a re-analysis of the deposited data

Results flagged for a closer look

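For 10 RNAs the hormone response differed between VDR KO and wild type cells by the interaction test (edgeR quasi-likelihood, adjusted p below 0.05, n = 3 libraries in each of 4 groups). Of all tested genes, 13.8% were called with a positive and 12.5% with a negative difference, so 6 and 4 of the 46 are no excess. Differences are log2 values, VDR KO minus wild type. They were -0.83 for LINC00657 (NORAD), -0.78 for LINC00667, -1.39 for LINC00526 and -0.34 for LINC00539. They were 0.58 for LINC00472, 0.77 for LINC00669, 0.66 for LINC00842, 0.55 for LINC00630, 1.48 for LINC00704 and 1.00 for LINC00641. In all 10 the fitted response had opposite signs in the 2 genotypes. Choosing RNAs by a large difference itself favours opposite signs, and their share among all genes so called was not computed. In the fit of all 12 libraries the response in VDR KO cells passed the test for none of them (lowest adjusted p = 0.0549, LINC00669). It passed for LINC00669 (0.00895), LINC00630 (0.0392) and LINC00657 (0.0411) when the VDR KO libraries were fitted alone, for LINC00669 by DESeq2 (0.0194), and for LINC00704 (0.0454) and LINC00669 (0.0478) without untreated VDR KO replicate 3.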

How the results depend on the processing

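No call turned its direction in any alternative. Of the values of single RNAs under an alternative, not all of them called in the main fit, 1313 kept their side of the threshold, 108 lost it and 3 gained it. Counts of calls that moved by over 1.5 times were few. At adjusted p below 0.01, 2 were lower with hormone in wild type cells and 2 had a negative difference of responses, and that second count was also 2 without the RNAs whose counts equal another gene's. With hormone in VDR KO cells, 1 was higher with no filter, 1 with DESeq2 and 2 with the compared groups alone, where 1 was also lower. With single libraries left out in turn, or the 2 libraries where LINC00152 stood apart, chosen after seeing the data, the counts higher and lower were 2 to 3 and 3 to 10 with hormone in wild type cells and 0 to 2 and 0 to 0 in VDR KO cells. They were 23 to 25 and 6 to 9 for VDR KO against wild type in treated cells, 23 to 25 and 7 to 10 in untreated cells, and 5 to 7 and 2 to 5 for the difference of responses. The cause was not tested. Deviations of same-numbered libraries from their group means correlated at -0.175 to 0.121 in 18 pairs. With 3 libraries in a group, these values cannot exclude a batch shared by replicate number. With replicate number as a block, 2 rose and 8 fell with hormone in wild type cells, 0 and 0 in VDR KO cells, 24 and 9 were higher and lower in treated VDR KO cells, 25 and 9 in untreated ones, and 6 and 3 differed in response. Without RNAs of protein-coding type, also chosen after seeing the data, 24 were higher and 8 lower in untreated VDR KO cells. Depth limits the 9 RNAs that the filter set aside, which had no test under the usual filter on all libraries.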
